A study of Mus musculus with 16 samples.

Results

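The 10 genes described here encode the non-collagen core of the basement membrane: the laminin chains Lama2, Lama4, Lama5, Lamb1, Lamb2 and Lamc1, the nidogens Nid1 and Nid2, and the heparan sulfate proteoglycans Hspg2 (perlecan) and Agrn (agrin). They form a set of basement membrane genes put together with earlier results of these data known, and all 21 probe sets that carry one of these symbols were followed, of 45101 probe sets on the array and 18193 genes with a symbol. The arrays were Affymetrix expression arrays hybridised with total RNA from the whole lung or the whole cerebellum of C57BL/6J mice harvested on postnatal day 7. Mice had received the synthetic glucocorticoid dexamethasone or vehicle, and the series title calls the treatment chronic and neonatal. The 4 groups were dexamethasone lung, vehicle lung, dexamethasone cerebellum and vehicle cerebellum, with 4 arrays each, described by the submitters as biological replicates. Neither the labels nor the design text states the dose, the schedule, the sex or the litter of the mice.

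A basement membrane is the thin sheet of matrix under epithelia and around vessels, muscle and the surface of the brain. Each laminin is a trimer of an alpha, a beta and a gamma chain that polymerises on the cell surface; the nidogens link this polymer to the collagen IV network, and perlecan and agrin carry the heparan sulfate chains of the sheet. In the lung the sheets of the alveolar epithelium and of the capillary endothelium lie against each other, while in the cerebellum basement membrane is found around vessels and under the pia.

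The deposited values were log2 intensities from RMA, with array medians between 5.87 and 6.00. The number of arrays limits the precision, and RMA gives every probe set a value whether or not its transcript was detected, so differences of dim probe sets are compressed. No 2 arrays were identical, and all 16 share 1 hybridisation date in the labels. Pearson correlations ran from 0.95 to 0.994 within a tissue and from 0.805 to 0.865 between tissues. Lung epithelial markers averaged 11.7 to 12.3 in the lungs and 6.21 to 6.45 in the cerebella, and cerebellar neuron markers 4.43 to 4.77 in the lungs and 12.0 to 12.5 in the cerebella, as the tissue labels have it. Values of 1 gene are compared between arrays below, and levels of different genes are not, since each probe set has its own affinity.

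Dexamethasone lungs had lower signals than vehicle lungs for 7 of the 10 genes (Lama2, Lama4, Lamb1, Lamc1, Nid1, Nid2 and Agrn), by 1.3-fold to 2.56-fold, and none was higher. This call is an adjusted p under 0.05 in limma, with Benjamini-Hochberg adjustment over all 18193 genes. Of all genes, 15.5% were called lower in lung by the same rule. Dexamethasone cerebella had lower signals than vehicle cerebella for 5 of the 10 (Lama2, Lama4, Lamb1, Nid1 and Nid2), by 1.44-fold to 1.66-fold, and none was higher, where 1.97% of all genes were called lower. Those 5 genes were lower in both tissues, which 0.621% of all genes were. The median difference over the 10 genes, dexamethasone minus vehicle on the log2 scale, was -0.54 in lung, where the median of all genes was 0.048, and -0.40 in cerebellum, where it was 0.007. The difference was below 0 for 9 of the 10 genes in lung, against 43% of all genes, and for 10 of 10 in cerebellum, against 48.4%. In these whole organs, fewer cells of a type and less RNA per cell cannot be told apart.

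**Figure D1:**
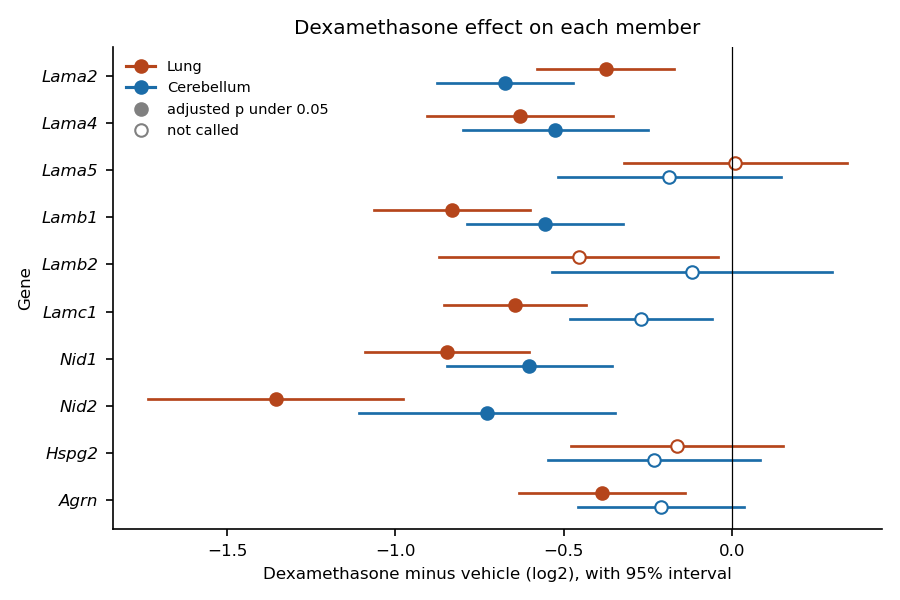
Dexamethasone minus vehicle (log2, x axis) for each of the 10 genes, with lung in red above cerebellum in blue; points are limma estimates, lines their 95% intervals, and filled points have an adjusted p under 0.05. All filled points lie left of 0, from -0.38 to -1.36 in lung and from -0.52 to -0.73 in cerebellum.

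RefSeq start-site windows (GRCm38.p6, 250 bases before to 50 after the start) were at hand for 7 of the 10 genes, in 8 windows; Lama4, Lamc1 and Nid2 are named only. The windows of 3 genes that were lower in both tissues and of Lama5, whose brightest probe set was called in neither, are shown because the treatment acts through a DNA-binding receptor, with matches to the glucocorticoid receptor half-site (AGAACA on either strand) and to the GC box (GGGCGG on either strand) in capitals. Lama2 is chr10:27616893-27617192 (minus strand), Lamb1 chr12:31265043-31265342 (plus), Nid1 chr13:13437352-13437651 (plus) and Lama5 chr2:180225810-180226109 (minus).
Lama2: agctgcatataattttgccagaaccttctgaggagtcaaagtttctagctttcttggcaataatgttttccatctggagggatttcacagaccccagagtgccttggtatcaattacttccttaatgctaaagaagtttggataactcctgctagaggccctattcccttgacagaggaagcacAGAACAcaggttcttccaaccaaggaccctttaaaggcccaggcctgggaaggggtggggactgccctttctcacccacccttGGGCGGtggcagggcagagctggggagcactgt
Lamb1: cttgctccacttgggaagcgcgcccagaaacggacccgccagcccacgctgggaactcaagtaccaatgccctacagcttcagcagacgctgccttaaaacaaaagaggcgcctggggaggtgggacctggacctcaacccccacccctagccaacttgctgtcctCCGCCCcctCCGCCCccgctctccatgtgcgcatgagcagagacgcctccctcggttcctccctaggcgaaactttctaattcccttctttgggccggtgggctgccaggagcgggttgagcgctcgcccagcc
Nid1: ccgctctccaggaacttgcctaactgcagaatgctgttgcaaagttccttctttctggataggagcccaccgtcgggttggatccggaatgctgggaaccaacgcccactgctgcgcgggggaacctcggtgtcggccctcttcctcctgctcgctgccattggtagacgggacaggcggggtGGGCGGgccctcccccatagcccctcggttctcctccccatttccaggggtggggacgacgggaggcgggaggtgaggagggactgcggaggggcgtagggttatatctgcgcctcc
Lama5: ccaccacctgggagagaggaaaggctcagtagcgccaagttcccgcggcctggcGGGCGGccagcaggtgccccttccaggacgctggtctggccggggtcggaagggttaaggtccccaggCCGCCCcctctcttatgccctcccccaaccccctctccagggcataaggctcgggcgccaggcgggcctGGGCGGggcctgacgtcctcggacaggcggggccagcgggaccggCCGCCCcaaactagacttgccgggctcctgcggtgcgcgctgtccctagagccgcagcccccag
The full palindromic receptor motif, GNACANNNTGTNC, was in none of the 8 windows, and in 0.475% of all 32851 windows. The half-site was in the Lama2 window alone, 66 bases before the start, and in 19% of all windows. At least 1 GC box was in the windows of Lama2, Lama5, Lamb1, Nid1, Hspg2 and Agrn but not Lamb2, and in 35.7% of all windows, while TATAAA on either strand was in none of the 8 and in 13.6% of all. GC content ran from 44.0% (Lamb2) to 83.3% (the first Agrn window), with a median of 52.7% over all windows. These are matches of letters, and binding was not measured.

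Among the alpha chains, Lama2 encodes the chain of muscle and glial laminins. Its values were 9.14, 9.07, 8.97 and 9.03 in the dexamethasone lungs, against 9.40, 9.51, 9.21 and 9.59 in the vehicle lungs. In the dexamethasone cerebella they were 7.56, 7.36, 7.47 and 7.42, against 8.13, 8.17, 7.94 and 8.26 in the vehicle cerebella. Every dexamethasone array lay below every vehicle array in each tissue. Lama2 fell by 0.38 in lung (SE 0.096, 1.3-fold, limma adjusted p = 0.00632) and by 0.67 in cerebellum (SE 0.096, 1.6-fold, limma adjusted p = 0.000695).

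Lama4 encodes the alpha chain of vascular endothelial laminin. The dexamethasone lungs had 9.80, 9.77, 9.55 and 9.48, against 10.51, 10.31, 9.83 and 10.48 in the vehicle lungs. The dexamethasone cerebella lay close together at 7.26, 7.24, 7.22 and 7.29, against 7.76, 7.97, 7.66 and 7.72 in the vehicle cerebella. Neither pair of groups overlapped, although in lung the lowest vehicle array, B19, lay just above the highest dexamethasone array. The difference was -0.63 in lung (SE 0.13, 1.55-fold lower, limma adjusted p = 0.00139) and -0.52 in cerebellum (SE 0.13, 1.44-fold lower, limma adjusted p = 0.0283). With the mean of both probe sets the cerebellar call was lost (-0.28, limma adjusted p = 0.352). The second probe set was dim in cerebellum, at 4.29 with dexamethasone and 4.32 with vehicle.

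Lama5, the alpha chain of most epithelial and mature endothelial basement membranes, was not called in either tissue on its brightest probe set. Its values were 8.86, 9.02, 8.97 and 8.95 in the dexamethasone lungs and 8.84, 8.92, 8.90 and 9.09 in the vehicle lungs, which overlapped throughout. The difference in lung was 0.011, with a 95% interval from -0.32 to 0.34 (limma adjusted p = 0.970). In cerebellum the dexamethasone arrays had 5.99, 6.95, 6.47 and 6.80, against 6.79, 6.51, 6.77 and 6.88 in the vehicle arrays. The low dexamethasone array was B39, and the difference of -0.19 had an interval from -0.52 to 0.15; without B39 it was 0.003.

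The beta chain gene Lamb1 had nearly equal values in the dexamethasone lungs, 11.38, 11.38, 11.39 and 11.40, against 12.28, 12.32, 12.00 and 12.28 in the vehicle lungs. The dexamethasone cerebella had 9.39, 9.58, 9.50 and 9.84, against 10.22, 10.27, 9.89 and 10.16 in the vehicle cerebella. Groups did not overlap in either tissue, although in cerebellum the highest dexamethasone array, B52, and the lowest vehicle array, B80, lay close together. Lamb1 fell by 0.83 in lung (SE 0.11, 1.78-fold, limma adjusted p = 2.37e-05) and by 0.56 in cerebellum (SE 0.11, 1.47-fold, limma adjusted p = 0.00694).

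Lamb2, the beta chain known from synaptic and kidney basement membranes, did not pass the test in either tissue. Its lung values were 8.20, 8.29, 8.63 and 8.40 with dexamethasone and 8.84, 9.04, 8.40 and 9.07 with vehicle. Vehicle array B19, at 8.40, lay within the dexamethasone range, below B40. The lung difference was -0.46 (95% interval from -0.87 to -0.04, limma adjusted p = 0.0915), and without B19 it was -0.60 (limma adjusted p = 0.0305). In cerebellum the values were 7.06, 6.04, 6.54 and 6.55 with dexamethasone and 6.65, 6.60, 6.40 and 7.02 with vehicle, a difference of -0.12 with an interval from -0.54 to 0.30.

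Lamc1 encodes the gamma chain shared by most laminins. The dexamethasone lungs had 10.42, 10.44, 10.54 and 10.60, against 11.26, 11.21, 10.82 and 11.29 in the vehicle lungs. The dexamethasone cerebella had 8.19, 8.27, 8.24 and 8.32, against 8.58, 8.56, 8.40 and 8.56 in the vehicle cerebella. In both tissues the 4 dexamethasone arrays lay below the 4 vehicle arrays. Lamc1 fell by 0.65 in lung (SE 0.099, 1.56-fold, limma adjusted p = 0.000108). The cerebellar difference of -0.27 had a 95% interval from -0.48 to -0.06 but did not pass the test over all genes (limma adjusted p = 0.15); with array weights it did (0.0476). Counting Lamc1, dexamethasone arrays lay wholly below vehicle arrays for 6 of the 10 genes in cerebellum, against 5.44% of all genes, and for 7 of the 10 in lung, against 15.5%.

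**Figure D2:**
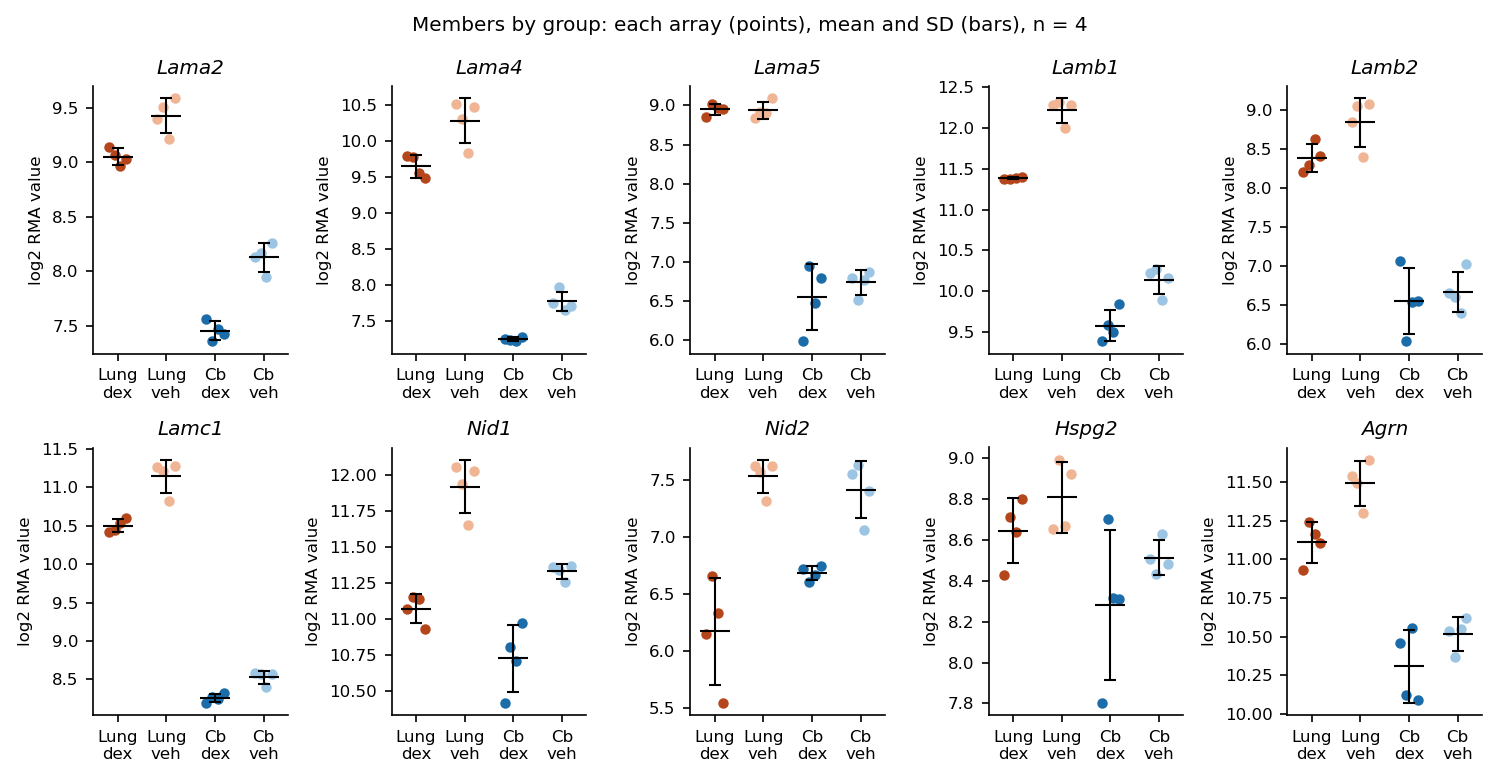
log2 RMA values (y axis, scaled per panel) of the 10 genes in dexamethasone lung, vehicle lung, dexamethasone cerebellum and vehicle cerebellum; points are arrays, bars the mean and SD of 4 arrays. The dexamethasone lungs of Lamb1 lie within 11.38 to 11.40, and Nid2 spreads most in the dexamethasone lungs, from 5.55 to 6.66.

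Nid1 encodes nidogen, the linker that binds the laminin gamma chain and collagen IV. The dexamethasone lungs had 11.07, 11.15, 11.14 and 10.93, against 12.06, 11.94, 11.65 and 12.03 in the vehicle lungs. The dexamethasone cerebella had 10.42, 10.81, 10.71 and 10.98, against 11.36, 11.34, 11.26 and 11.37 in the vehicle cerebella. The groups were separate in both tissues, and the lowest cerebellar array was again B39. Nid1 fell by 0.85 in lung (SE 0.12, 1.80-fold, limma adjusted p = 3.2e-05) and by 0.60 in cerebellum (SE 0.12, 1.52-fold, limma adjusted p = 0.00574).

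Nid2, the second nidogen, had the largest log2 difference of the 10 genes in both tissues. Its values were 6.15, 6.66, 6.33 and 5.55 in the dexamethasone lungs, against 7.62, 7.57, 7.31 and 7.62 in the vehicle lungs. In the dexamethasone cerebella they were 6.72, 6.60, 6.66 and 6.74, against 7.55, 7.63, 7.06 and 7.40 in the vehicle cerebella. All dexamethasone arrays lay below all vehicle arrays in each tissue, and the lowest value of all was the dexamethasone lung array B46. Nid2 was 2.56-fold lower in lung (log2 difference -1.36, SE 0.18, limma adjusted p = 2.4e-05) and 1.66-fold lower in cerebellum (-0.73, SE 0.18, limma adjusted p = 0.0266). The cerebellar call of Nid2, like that of Lama4, was lost when some single arrays were left out: 3 of the 10 genes were called without B49, B50, B52, B78 or B79, and Lama4 was also lost without B39 and Nid2 without B81.

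Of the proteoglycans, agrin (Agrn), which also clusters acetylcholine receptors at the neuromuscular junction, had 10.93, 11.24, 11.16 and 11.11 in the dexamethasone lungs, against 11.54, 11.50, 11.30 and 11.65 in the vehicle lungs. The groups did not overlap, and Agrn fell by 0.39 (SE 0.12, 1.31-fold, limma adjusted p = 0.0184). The call was lost without B28 (limma adjusted p = 0.0611) or B22 (0.0602). It was also lost with the mean of both probe sets (-0.09, 0.389), of which the second was dim, at 4.71 in dexamethasone and 4.505 in vehicle lungs. In cerebellum the dexamethasone arrays had 10.46, 10.12, 10.56 and 10.09, against 10.53, 10.37, 10.55 and 10.62 in the vehicle arrays. These overlapped, with a difference of -0.21 and a 95% interval from -0.46 to 0.037.

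Perlecan (Hspg2) was not called in either tissue on its brightest probe set. The dexamethasone lungs had 8.43, 8.71, 8.64 and 8.80, against 8.66, 8.99, 8.67 and 8.92 in the vehicle lungs; the dexamethasone cerebella had 7.80, 8.70, 8.32 and 8.31, against 8.51, 8.43, 8.63 and 8.48 in the vehicle cerebella. Both pairs overlapped. The difference was -0.16 in lung, with an interval from -0.48 to 0.15, and -0.23 in cerebellum, with an interval from -0.55 to 0.08.

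The result for Hspg2 depended on the probe set. On its other probe set, 1418670_s_at, the dexamethasone lungs had 8.06, 8.29, 8.52 and 7.81, against 8.83, 9.34, 8.94 and 9.39 in the vehicle lungs, with no overlap, and the difference was -0.96 (limma adjusted p = 0.000994 over all probe sets). The mean of both probe sets gave -0.56 (adjusted p = 0.00342 over all genes). Lama5 behaved likewise: its second probe set, 1427010_s_at, had 7.43, 7.49, 8.08 and 7.77 in the dexamethasone lungs, against 8.21, 8.10, 8.13 and 8.62 in the vehicle lungs. These groups did not overlap, and the difference was -0.57 (limma adjusted p = 0.0241), while the dimmest, 1459614_at, gave -0.28 (0.0237). The mean of the 3 Lama5 probe sets was also called lower in lung (-0.28, adjusted p = 0.0494 over all genes). Which transcripts these probe sets read was not tested.

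Fitted one by one with adjustment over all probe sets, 15 of the 21 were called lower in lung, where 13.3% of all probe sets were, and 6 of the 21 in cerebellum, where 1.45% were; none was called higher in either tissue. Of the 15 probe sets with a mean of at least 6 over the 16 arrays, 12 were lower in lung and 6 in cerebellum, and of the 6 dimmer ones 3 were lower in lung and 0 in cerebellum. The share over all probe sets of like brightness was not counted. At the gene level, calls were more frequent once dim genes were left out. Of the 12935 genes with a group mean of at least 6, 2854 were lower in lung and 434 in cerebellum. The 2 brighter further Lamb1 probe sets were both lower in lung, by -0.83 and -0.51, and the first also in cerebellum, by -0.51. The 2 further Nid1 probe sets had lung differences of -1.21 and -0.84, both called, and neither was called in cerebellum. The second of them, 1441519_at, was dim, with a mean of 5.08 over the 16 arrays, and its lung groups overlapped. A dim Lama4 probe set, 1424808_at, had 5.37, 5.08, 5.50 and 5.02 in the dexamethasone lungs, against 6.65, 6.27, 5.76 and 6.52 in the vehicle lungs. It was lower in lung (-1.06), while its cerebellar difference was -0.029. The dim second Agrn probe set differed by 0.20 in lung, in the other direction from the bright one, and was not called.

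**Figure D3:**
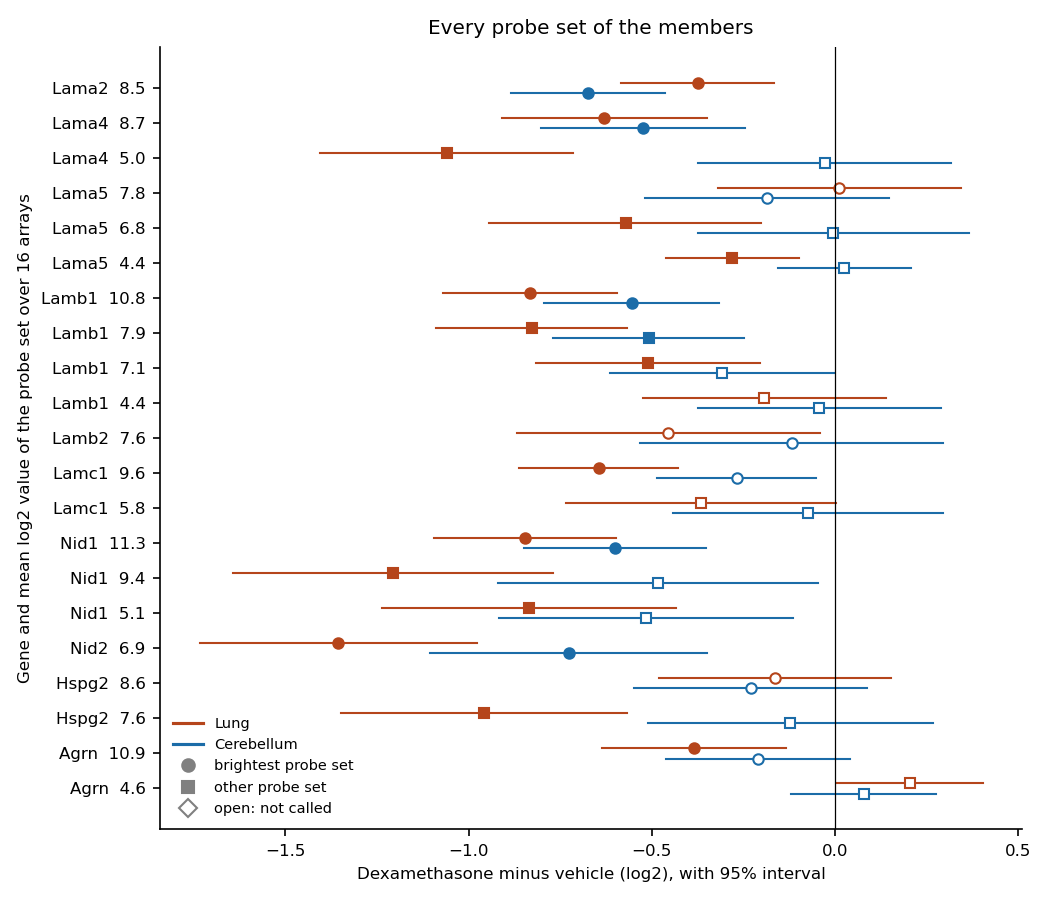
Dexamethasone minus vehicle (log2, x axis) for each of the 21 probe sets, named by gene and mean log2 value over the 16 arrays; circles are the brightest probe set of a gene, squares the others, lines 95% intervals, and open symbols were not called over all probe sets. Hspg2 and Lama5 have a lung difference near 0 on the circle and of -0.96 and -0.57 on a square.

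Whether dexamethasone moved these genes differently in the 2 tissues was asked with the difference of the differences, lung minus cerebellum. None of the 10 passed the limma test over all genes, where 21.3% of genes did in either direction. Nid2 had the most negative value, -0.63 (95% interval from -1.17 to -0.09, adjusted p = 0.0922), followed by Lamc1 at -0.38 (adjusted p = 0.0693). Lama2 had the most positive value, 0.30 (adjusted p = 0.135), which was called after quantile normalization of the deposited values (0.37, adjusted p = 0.0358). Without the vehicle lung array B19, Lamc1 was called (-0.48, adjusted p = 0.00679), and without the dexamethasone lung array B31, Nid2 was (-0.79, adjusted p = 0.0215). Of the 21 probe sets fitted one by one, 2 were called, both more negative in lung: the dim Lama4 probe set (-1.03, adjusted p = 0.00594) and the second Hspg2 probe set (-0.84, adjusted p = 0.0406). By that rule 8.28% of all probe sets were called in this direction. On the bright Lama4 probe set this difference was -0.11 and not called. The dim Lama4 probe set averaged 4.29 in dexamethasone cerebella and 4.32 in vehicle cerebella, a level at which differences are compressed.

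The vehicle groups alone, whose arrays also enter the comparisons above, show how the 2 tissues differ without the drug. Vehicle lungs had higher signals than vehicle cerebella for 8 of the 10 genes, where 28% of all genes did, with a median log2 difference of 1.69 against 0.002 for all genes. Lamc1 averaged 11.1 ± 0.2 in vehicle lung and 8.53 ± 0.09 in vehicle cerebellum (SD, n = 4 each), a 6.15-fold difference (limma adjusted p = 4.07e-13). It was followed by Lama4 (5.68-fold), Lama5 (4.6-fold), Lamb2 (4.5-fold) and Lamb1 (4.25-fold), then Lama2 (2.46-fold), Agrn (1.97-fold) and Nid1 (1.5-fold, limma adjusted p = 0.000276). Nid2 averaged 7.53 ± 0.15 in vehicle lung and 7.41 ± 0.25 in vehicle cerebellum, which overlapped, with a log2 difference of 0.12 and a 95% interval from -0.26 to 0.50. For Hspg2 the brightest probe set gave 0.30 (interval from -0.02 to 0.61), with every lung array above every cerebellar one, and the other probe set gave 2.46. All vehicle lung arrays lay above all vehicle cerebellar arrays for 9 of the 10 genes, against 27.4% of all genes, and 18 of the 21 probe sets were called higher, against 23.5% of all probe sets. With the Gapdh value described below as a covariate, Nid1 (0.63, adjusted p = 0.157) and Agrn (0.81, 0.0666) were not called, at log2 differences of 0.59 and 0.98 without it; the Hspg2 value was called with array weights (0.0499), with only the arrays compared (0.0284) and without B39 (0.0379), whose removal changes the shared spread.

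Lists of other basement membrane genes, 6 in all with 52 measured genes, set these values in the pathway. Of 4 other laminin chains, Lamc3 (0.88, limma adjusted p = 0.00088) and Lamb3 (0.50, 0.0201) were higher and Lama1 (-0.47, 0.0136) lower in lung. None was called in cerebellum. Lama3 differed by 0.037 there but was dim, at 5.09 with dexamethasone and 5.05 with vehicle. Lama1, at 6.52 and 6.72 in the same groups, differed by -0.20. Of 8 collagens, the chains of the general collagen IV network, Col4a1 (-0.53, 0.00216) and Col4a2 (-0.50, 0.0173), were lower in cerebellum and were not called in lung (-0.24 and -0.18). In lung Col4a1 was close to the threshold (limma adjusted p = 0.0505), with every dexamethasone array below every vehicle array. Neither chain was called in the difference between tissues (limma adjusted p = 0.105 for Col4a1 and 0.188 for Col4a2). In lung the basement membrane zone collagen Col15a1 was lower (-1.35, 0.000252), and Col4a3 (0.96, 0.000412) and Col4a6 (0.44, 0.0347) were higher. The collagen medians were -0.10 in lung and -0.41 in cerebellum.

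Of 13 other components and assembly factors, 6 were lower and 3 higher in lung, with a median of -0.44, and none was called in cerebellum, with a median of -0.035. The fibulins Fbln2 (-2.21, limma adjusted p = 5.58e-08) and Fbln1 (-1.70, 1.46e-07) were lower in lung, while Smoc2, a secreted calcium-binding matrix protein, was higher (3.45, 6.4e-08). The brightest of the list, Sparc, differed by 0.19 in cerebellum. Of 11 receptors, the collagen-binding and laminin-binding integrin alpha chains Itga1 (-1.70), Itga2 (-1.06) and Itga6 (-0.74) were lower in lung and 1 receptor was higher; Itga1 (-0.71, adjusted p = 0.0199) was the only receptor called in cerebellum. Of 5 measured enzymes that glycosylate dystroglycan, a laminin receptor, none was called in either tissue; the brightest, Rxylt1, differed by 0.19 in lung and -0.15 in cerebellum. Of 11 heparan sulfate enzymes, 5 were lower and 1 higher in lung, among them the chain-building Ext1 (-0.90, adjusted p = 1.02e-05) and Extl3 (-0.44, 0.00239) and the sulfotransferase Hs6st2 (-1.11, 0.00134), and none was called in cerebellum, where Sulf2 differed by 0.16. The backgrounds were 15.5% lower and 15.7% higher in lung and 1.97% lower and 2.84% higher in cerebellum. All of these lists but the dystroglycan one had lung calls in both directions, and the 10 genes in the lower direction only. This contrast is a description, since the 10 genes and the lists were chosen with earlier results of these data known. Lamb3 and Lamc3, higher in lung, were placed with the other laminin chains. Some of those calls were on dim genes. Lama1 averaged 4.92 in dexamethasone lungs and 5.38 in vehicle lungs, and Lamc3 5.955 and 5.07. The higher receptor, Itgb4, averaged 5.955 and 5.64 (limma adjusted p = 0.0495). The endothelial, smooth muscle and fibroblast marker lists below also had lung calls in the lower direction only.

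**Figure D4:**
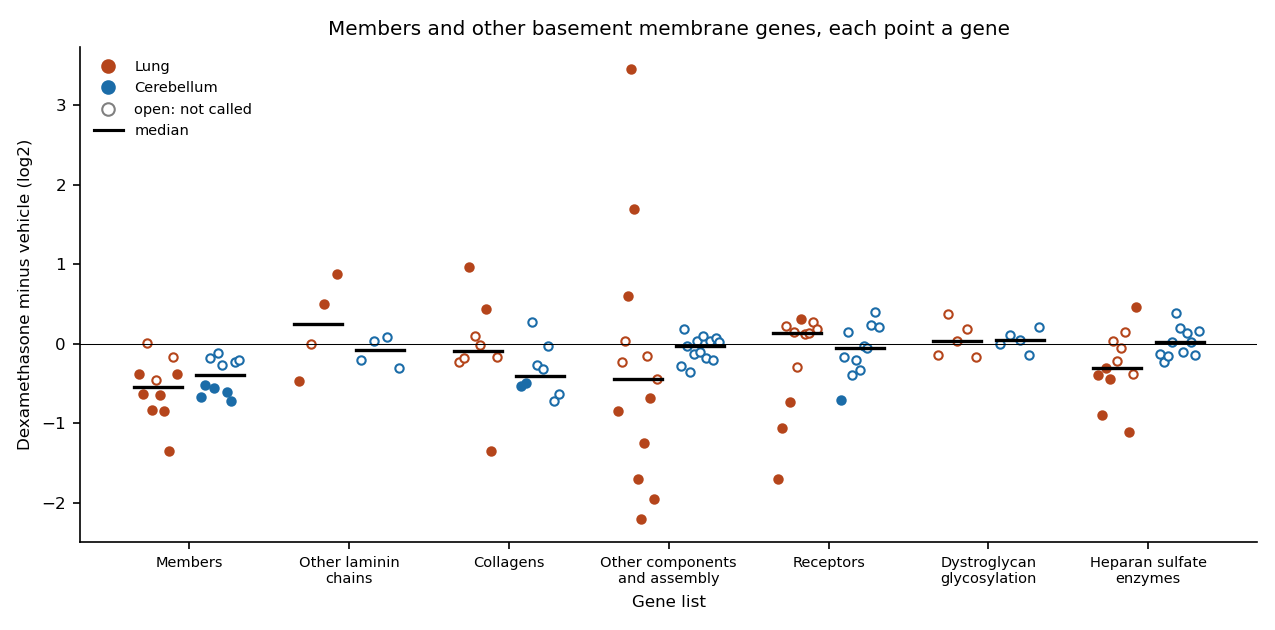
Dexamethasone minus vehicle (log2, y axis) for every measured gene of the 10 members and of 6 other basement membrane lists, lung in red and cerebellum in blue; filled points have an adjusted p under 0.05 and black lines are list medians. The members' medians are -0.54 in lung and -0.40 in cerebellum, and the other components reach from -2.21 to 3.45 in lung.

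The mean levels of the endothelial, pericyte and fibroblast marker lists were lower with dexamethasone in both tissues, like most of these genes. Other marker lists, given below, were not all lower, and the lung epithelial and cardiac means were higher in dexamethasone lungs. The mean log2 level of 10 endothelial markers ran from 10.1 to 10.3 in the dexamethasone lungs, against 10.6 to 10.8 in the vehicle lungs, and from 6.96 to 7.08 in the dexamethasone cerebella, against 7.49 to 7.78 in the vehicle cerebella; 5 of the 10 were called lower in lung, and 6 lower and 1 higher in cerebellum. Of 7 pericyte markers, 4 were lower in each tissue and 1 was higher in lung. Of 6 fibroblast and meningeal markers, 4 were lower in lung and 2 in cerebellum. For all 3 lists the dexamethasone and vehicle ranges did not overlap in either tissue. In alternatives added after seeing the data, with the level of the endothelial, pericyte or fibroblast markers as a covariate, 0 of the 10 genes were called in either tissue, but the calls over all genes also fell, in cerebellum to 0, 1 and 3 genes. The part of these cells in the result was not tested.

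In cerebellum the mean of 6 neuronal markers was higher, from 12.2 to 12.5 in the dexamethasone cerebella, against 12.0 to 12.1 in the vehicle cerebella. Of the 6, Gabra6 had the largest difference and was the 1 called (1.23, limma adjusted p = 0.00419). The other 5 were not called, with differences from -0.096 (Zic1) to 0.34 (Pcp2). The mean of 5 astrocyte and Bergmann glia markers overlapped, from 11.9 to 12.0 in the dexamethasone cerebella and from 11.9 to 12.1 in the vehicle cerebella. Of the 5, Aldoc was called higher in cerebellum (0.70, limma adjusted p = 0.0123). Gfap (-0.635), Aqp4 (-0.25) and Slc1a3 (-0.19) were below 0 there and not called, and the list median was -0.19. In lung 3 of these 5 were called higher. The part of neurons and glia in the result was not tested either.

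In lung, 4 of 5 smooth muscle markers were lower, with levels from 9.18 to 10.1 in the dexamethasone lungs, against 10.5 to 10.9 in the vehicle lungs. In the other direction, 4 of 8 lung epithelial markers were higher (12.2 to 12.3 in dexamethasone lungs, against 11.7 to 11.9 in vehicle lungs). So were 5 of 6 cardiac muscle markers (8.99 to 9.82 in dexamethasone lungs, against 8.35 to 8.59 in vehicle lungs). The cardiac marker not called, Nppa, was dim in every group. It averaged 4.5 in dexamethasone lungs, 4.61 in vehicle lungs, 4.48 in dexamethasone cerebella and 4.515 in vehicle cerebella. Of 5 skeletal muscle markers 1 was higher in lung, and of 3 measured Schwann cell markers none was called. The Gapdh control probe sets for RNA integrity also differed between the lung groups, with 3' minus 5' values from 0.45 to 0.71 in the dexamethasone lungs and from 0.84 to 1.04 in the vehicle lungs, and overlapped in cerebellum (0.049 to 0.18 with dexamethasone and 0.044 to 0.52 with vehicle). The actin control probe sets overlapped in both tissues. Their 3' minus 5' values were 0.451 to 0.642 in dexamethasone lungs and 0.611 to 0.667 in vehicle lungs. In cerebella they were 0.535 to 0.577 with dexamethasone and 0.524 to 0.942 with vehicle. With the Gapdh value as a covariate, the lung calls of Lama2 (-0.36, limma adjusted p = 0.199) and Agrn (-0.29, 0.423) and the cerebellar call of Nid2 (-0.71, 0.0571) were lost. Without the covariate these differences were -0.38, -0.39 and -0.73.

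**Figure D5:**
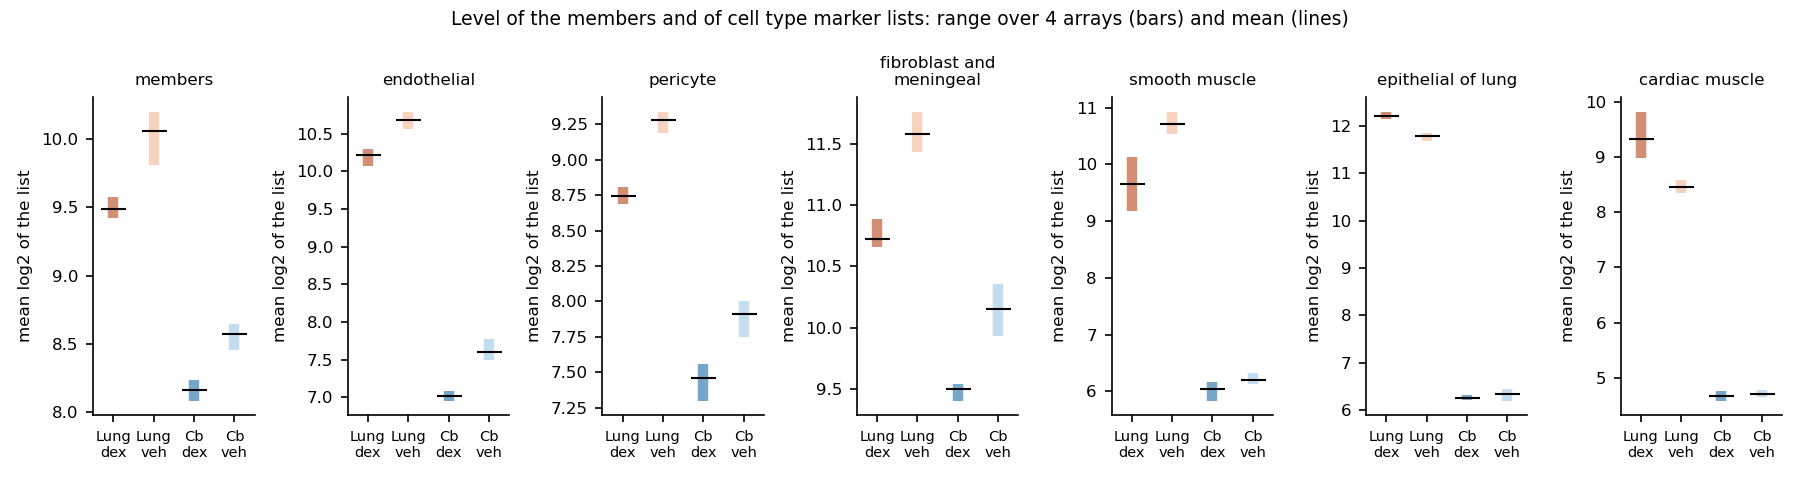
Mean log2 level (y axis, scaled per panel) of the 10 members and of 6 cell type marker lists in dexamethasone lung, vehicle lung, dexamethasone cerebellum and vehicle cerebellum; bars span the 4 arrays and lines are means. The members run from 9.43 to 9.57 in dexamethasone lungs and 9.81 to 10.2 in vehicle lungs, and the endothelial, pericyte and fibroblast lists are lower with dexamethasone in both tissues, while the lung epithelial and cardiac lists are higher in dexamethasone lungs.

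The genes most like each member were found by the root mean square difference over the 16 arrays, after centring each gene on its own mean; the points share tissue and treatment, and the measure is a description. For Lamc1 the 5 nearest were Adamts10 (0.15), Lama4 (0.16), Tram2, Vstm4 and Prkd2 (each 0.17). Lama4 in turn had Lamc1 as its nearest of all 18193 genes, the only pair of members in this list. The nearest was Tead1 for Lama2, Col4a5 for Lama5, Robo4 for Lamb1, Ano6 for Lamb2, Vim for Nid1 (0.11), Ttc28 for Nid2 (0.19), Cxcr3 for Hspg2 and Crlf2 for Agrn (0.090). Adamts10 averaged 9.61 in dexamethasone lung and 10.3 in vehicle lung, and 7.44 in dexamethasone cerebellum and 7.76 in vehicle cerebellum.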

How the data were processed

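Total RNA from 16 whole organs was hybridised to Affymetrix arrays. The deposited values are on the log2 scale and were made by the authors with RMA, per the submitters' processing notes; no version or setting was given there. All columns were matched to groups by sample labels. Probe sets were named through the platform annotation and RefSeq symbols: 64 controls were dropped, 34945 probe sets had 1 symbol, 932 several and 9160 none, and for 9010 genes with more than 1 probe set that with the highest mean over the 16 arrays was used.

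A mean per group was fitted over all 16 arrays with limma 3.58.1 (lmFit, eBayes; R 4.3.3) without a filter, giving 12 residual degrees of freedom, and p-values were adjusted by Benjamini-Hochberg over 18193 genes. Intervals are 95%. The scripts were tested on simulated data. The spread behind the p-values is that between arrays, and litters are not known. Xist, a covariate named below, had a log2 median of 10.8 in dexamethasone lungs (5.67 to 10.9), against 6.53 in vehicle lungs (5.53 to 11.9). Its median was 8.56 in dexamethasone cerebella (5.52 to 11.4), against 5.64 in vehicle cerebella (4.99 to 11.4). Balance of the sexes between groups was not tested. The members and lists were chosen with earlier results of these data known. Named were all 10 members and the nearest gene to each member (5 for Lamc1). From each pathway list, up to 3 called genes with the smallest adjusted p were named per comparison with vehicle, or the brightest where none was called. Col4a1, Col4a2, Rxylt1 and Lama1 are given for both tissues. Gabra6, Aldoc, Nppa, Itgb4, Zic1, Pcp2, Gfap, Aqp4 and Slc1a3 were named after their values were seen. Of 59 listed pathway genes 7, and 2 of the marker genes, are not analysed here. Alternatives were the mean of all probe sets, every probe set on its own, a filter at a log2 mean of 6, quantile normalization or median centring of the deposited values, only the arrays compared, an intensity trend with robust estimation, array weights, Xist as a covariate and every array left out in turn; the Gapdh 3' minus 5' value and 3 marker levels as covariates, and leaving out B39 and B46 together, were added after seeing the data.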

Additional observations from a re-analysis of the deposited data

Results flagged for a closer look

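Over the 21 probe sets in 4 groups, 84 sets of 4 arrays, 8 had an array far from the other 3, its gap to the nearest, over the range, exceeding Dixon's 95% critical value, which chance gives in about 5% of sets; probe sets of 1 array are not independent. All 8 were the lowest of their group, and 5 were the vehicle lung array B19. It had 12.00 for Lamb1 (1424114_s_at), against 12.28 for the next array, and 9.04 on the further Lamb1 probe set 1424113_at, against 9.47. It had 10.82 for Lamc1, against 11.21, 10.00 for Nid1 on 1448469_at, against 10.40, and 7.31 for Nid2, against 7.57. B19 was the lowest vehicle lung in 8 of the 10 genes. The vehicle cerebellum array B80, lowest of its group in 7 of the 10 genes, had 8.40 for Lamc1, against 8.56, and 6.11 for Hspg2 on 1418670_s_at, against 6.80. The dexamethasone lung array B28 had 4.47 for Lama5 on the dim 1459614_at, against 4.55. Without B19, 8 of the 10 genes were lower in dexamethasone lungs, Lamb2 being the eighth.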

How the results depend on the processing

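No paired analysis was possible because the labels share no replicate number between groups. Counts of called genes stayed within 1.5 times of 5 in cerebellum, 7 in lung and 8 between vehicle tissues except as given here. Leaving out 1 array gave 3 to 5 in cerebellum, 6 to 8 in lung, 0 to 1 for the difference between tissues and 8 to 9 for vehicle lung over cerebellum. The difference between tissues had 1 call with the mean of probe sets (Lama4, -0.57, adjusted p = 0.0496), 1 with array weights (Lamc1, -0.43, 0.02), 1 with quantile normalization (Lama2, 0.37, 0.0358, in the other direction) and 2 with the endothelial level as a covariate. The endothelial, pericyte and fibroblast levels each left 0 calls in both tissues; they differ between the groups without overlap, and calls over all genes fell to 610 higher and 357 lower, 265 and 165, and 128 and 112 in lung. With the mean of probe sets, Lama4 lost its cerebellar call (-0.28, 0.352) and Agrn its lung call (-0.09, 0.389), while Lama5 (-0.28, 0.0494) and Hspg2 (-0.56, 0.00342) gained lung calls and Hspg2 the vehicle tissue call (1.38). For Lama4, Agrn and Lama5 this mean weighs a dim probe set equally with the brighter ones, and the Lama4 call between tissues rests on the same mean. The Lama5 call turns its sign. Other signs turned, none of them called: Lama5 in lung with Xist (-0.039) and single arrays left out (-0.022 to 0.062), and in cerebellum without B39 and B46 (0.003) and with single arrays left out (-0.32 to 0.003, without B39); Lamb2 in cerebellum with single arrays left out (-0.29 to 0.052, without B49); Hspg2 between tissues with the mean of probe sets (-0.38), array weights (-0.10), single arrays left out (-0.093, without B39, to 0.21) and without B39 and B46 (-0.15); Lama5 between tissues with the mean of probe sets (-0.23); Nid2 between vehicle tissues with the Gapdh value (-0.043). Under the marker levels signs turned as well: endothelial, Lama4 0.12, Lamb2 0.66 and Nid2 0.21 in cerebellum and Lama5 -0.18 and Lamb2 0.18 in lung; pericyte, Lamb2 0.84 in cerebellum, Lama2 0.073, Lama5 -0.68 and Lamb2 0.68 in lung and Hspg2 -0.046 between tissues; fibroblast, Lama4 0.14 and Lamc1 0.043 in cerebellum, Lama4 0.25 and Lama5 -0.036 in lung and Lama4 0.10 between tissues. Causes were not tested. Over all genes, cerebellar calls (516 higher, 358 lower) were 962 and 737 with array weights, 315 and 213 without B50, 356 and 201 without B79 and 473 and 523 with quantile normalization; lung calls (2860 and 2819) were 856 and 950 with the Gapdh value. Array signals near background limit the 6 dim probe sets.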
